A study of Mus musculus with 8 samples.

Results

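The Hox genes of the 4 clusters were taken as every gene whose symbol in the platform annotation is Hoxa, Hoxb, Hoxc or Hoxd followed by a paralog number alone. The RefSeq gene table lists 39 such mouse genes, and 33 of them had a probe set assigned to that 1 symbol, out of 18193 genes with such a probe set. The members were read by 48 probe sets, 11 genes having more than 1, and a gene is represented by whichever of them was brightest on average across all 8 arrays unless another is named. By cluster there were 9 Hoxa, 9 Hoxb, 7 Hoxc and 8 Hoxd genes, and by paralog number 10 in the range 1 to 4, 9 in 5 to 8 and 14 in 9 to 13. A filter on dim genes, which asked for a signal above the array's median in at least 2 arrays, kept 18 members and left out 15, so that only the 18 have a test. The 15 dim members were Hoxa2, Hoxa4, Hoxa13, Hoxb1, Hoxb5, Hoxb6, Hoxb7, Hoxb9, Hoxb13, Hoxc4, Hoxc5, Hoxc8, Hoxd1, Hoxd3 and Hoxd12.

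The study used the CCE line of embryonic stem (ES) cells, from 129/Sv mice, and the embryoid bodies they form, which are free-floating aggregates in which ES cells differentiate into many cell types. One Affymetrix array was run per sample, with 2 arrays in each of 4 groups. Embryoid bodies labelled Bmi1 came from ES cells infected with a lentivirus carrying mouse Bmi1 cDNA, and vector embryoid bodies from ES cells infected with the empty vector. Both were collected on day 10. ES cells labelled Bmi1 carried the same cDNA, and the control ES cells were 1 untreated array and 1 empty vector array, the infected cells having been sorted for eGFP. All samples go back to this single ES cell line, and the labels do not say whether the replicates were separate infections or cultures, so p-values measure the spread between arrays, which may be technical. In these bulk samples, fewer cells of a type and less RNA per cell cannot be told apart.

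Hox genes encode homeodomain transcription factors that give cells their position along the body axis. They lie in 4 clusters, and their order along the chromosome follows the order in which they are switched on: genes with low paralog numbers are used early and towards the head, and those with high numbers later and towards the tail, the limbs and the urogenital tract. In ES cells the clusters are held silent by Polycomb complexes, and Bmi1 encodes a subunit of Polycomb repressive complex 1.

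The start regions of Hoxa10, Hoxa11, Hoxd10 and Hoxd11, the members called lower in the embryoid bodies labelled Bmi1 in the fit with the set block described below, are shown here because CpG-rich start sites are typical of genes that Polycomb complexes bind. Each is the 200 bases upstream of a RefSeq start on GRCm38.p6, 5′ to 3′, with every CpG in capitals. Hoxa10 and Hoxd11 have 2 starts each in that table, and Hoxb4, whose embryoid body arrays overlapped between the groups, is given for comparison.
Hoxa10, chr6:52234940-52235139, minus strand: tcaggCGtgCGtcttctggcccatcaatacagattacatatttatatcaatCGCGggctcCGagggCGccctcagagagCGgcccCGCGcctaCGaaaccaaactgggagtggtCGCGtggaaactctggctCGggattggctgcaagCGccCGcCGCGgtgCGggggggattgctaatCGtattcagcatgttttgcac
Hoxa10, chr6:52240855-52241054, minus strand: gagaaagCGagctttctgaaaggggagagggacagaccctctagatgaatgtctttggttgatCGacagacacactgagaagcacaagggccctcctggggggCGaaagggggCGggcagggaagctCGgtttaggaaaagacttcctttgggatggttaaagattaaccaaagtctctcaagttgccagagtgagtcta
Hoxa11, chr6:52245811-52246010, minus strand: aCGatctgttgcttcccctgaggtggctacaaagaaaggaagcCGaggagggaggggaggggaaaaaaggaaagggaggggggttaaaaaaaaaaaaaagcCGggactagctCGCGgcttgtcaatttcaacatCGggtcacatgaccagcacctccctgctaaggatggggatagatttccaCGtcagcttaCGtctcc
Hoxd10, chr2:74691691-74691890, plus strand: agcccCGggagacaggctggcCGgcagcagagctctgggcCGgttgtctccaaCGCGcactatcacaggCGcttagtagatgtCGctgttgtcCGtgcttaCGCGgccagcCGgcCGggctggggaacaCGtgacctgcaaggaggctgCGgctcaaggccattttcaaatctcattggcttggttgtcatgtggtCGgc
Hoxd11, chr2:74679358-74679557, plus strand: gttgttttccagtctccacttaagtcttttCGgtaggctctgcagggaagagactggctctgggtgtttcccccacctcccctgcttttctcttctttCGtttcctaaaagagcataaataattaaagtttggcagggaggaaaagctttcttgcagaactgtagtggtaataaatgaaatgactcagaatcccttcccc
Hoxd11, chr2:74682123-74682322, plus strand: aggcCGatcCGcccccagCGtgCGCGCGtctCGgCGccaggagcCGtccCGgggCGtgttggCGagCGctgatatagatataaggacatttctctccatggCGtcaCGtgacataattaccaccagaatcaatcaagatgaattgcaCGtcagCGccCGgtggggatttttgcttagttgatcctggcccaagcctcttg
Hoxb4, chr11:96318067-96318266, plus strand: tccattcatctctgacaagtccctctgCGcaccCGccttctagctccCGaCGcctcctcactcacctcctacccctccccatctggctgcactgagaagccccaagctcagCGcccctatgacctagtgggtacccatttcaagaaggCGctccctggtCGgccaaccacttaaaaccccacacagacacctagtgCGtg
A start window was found for 19 of the 33 members (21 windows), and 14 had none in the table. In the 250 bases upstream of the start, the member windows held a median of 13 CpGs, with a range of 2 to 35, against a median of 6 over all 32851 windows. For Hoxa10 one window held 20 CpGs, a count reached by 17.9% of all windows, and the other 7. The Hoxd10 window held 20, the Hoxa11 window 13, and the Hoxd11 windows 2 and 20. The 6 windows of these 4 genes had a median of 16.5 and the other 15 member windows a median of 12, and no test of this difference was made. On both strands, TTTATG was present in 3 of the 21 windows (14.3%, against 10.8% of all windows), TGATNNAT in 3 (14.3%, against 7.68%) and TATAAA in 2 (9.52%, against 12.4%). Neither TTTATG nor TGATNNAT stood in the windows of Hoxa10, Hoxa11 and Hoxd10. Of the Hoxd11 windows, the one with 2 CpGs held TTTATG and the one with 20 held TGATNNAT. These are matches of letters and not measured binding.

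Markers of the 2 stages matched the labels. All 8 listed ES cell genes, among them Pou5f1 and Nanog, were called lower in vector embryoid bodies than in control ES cells. In that comparison 35.8% of the genes tested were called lower. The mean log2 level of the 8 was 12.60 to 13.01 on the ES cell arrays and 8.80 to 10.77 on the embryoid body arrays. The Bmi1 signal went against the labels: its brighter probe set read 7.48 and 8.51 in embryoid bodies labelled Bmi1 and 9.35 and 9.67 in vector embryoid bodies, and 5.68 and 6.28 in ES cells labelled Bmi1 and 7.41 and 7.74 in controls. The groups are therefore named by their labels, and no direction below is one of more or less Bmi1. The deposited columns fell into 3 sets of nearly equal distributions: the 4 ES cell arrays, the replicate 1 embryoid bodies and the replicate 2 embryoid bodies. Differences are therefore also given within each embryoid body set, and p-values also with the set as a block.

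In day 10 embryoid bodies, the samples labelled Bmi1 were compared with the vector samples. Within both sets, 8 of the 9 Hoxa and Hoxd genes with paralog numbers 9 to 13 were lower in the samples labelled Bmi1. The exception was the dim Hoxd12. All 3 Hoxc genes and 1 of the 2 Hoxb genes of this range were also lower within both sets. Over all 33 members, 26 had the lower mean in the samples labelled Bmi1. The share of all genes with the lower mean was not counted. Lower within both sets were 21 members, and 32.9% of all genes were lower within both sets. The arrays of the 2 groups did not overlap for 13 members, all of them lower (12.3% of all genes were lower in this way and 9.36% higher). The median difference was -0.25 on the log2 scale, and -0.25 and -0.26 in the sets, against -0.02 over all genes. Of the 14 members with paralog numbers 9 to 13, 12 were lower within both sets, 8 did not overlap between the groups, and the median was -0.40. The median of the range 9 to 13 ran from -0.54 to -0.18 with 1 embryoid body array left out, at -0.26 without replicate 2 labelled Bmi1 and -0.18 without vector replicate 1. It also depended on the probe set, at -0.585 both with the mean of probe sets and with the probe set brightest in embryoid bodies. In the range 5 to 8 the median of the 9 members was -0.24, with 5 lower within both sets, but it was 0.09 without replicate 2 labelled Bmi1, -0.03 without vector replicate 1, -0.46 without replicate 1 labelled Bmi1 and -0.45 without vector replicate 2. In the range 1 to 4 the median of the 10 was -0.09, and -0.18 without replicate 1 labelled Bmi1. Of these 10 members, 4 were lower within both sets, among them all 3 Hoxa genes. By cluster, the median was -0.73 over Hoxd, -0.27 over Hoxa, -0.24 over Hoxc and -0.02 over Hoxb. The groups did not overlap for 5 Hoxa, 2 Hoxb, 1 Hoxc and 5 Hoxd genes. Leaving out 1 embryoid body array moved the count of lower members to between 20 and 30 and the median to between -0.41 and -0.10. It was -0.41 without replicate 1 labelled Bmi1, -0.13 without replicate 2 labelled Bmi1 and -0.10 without vector replicate 1.

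**Figure D1:**
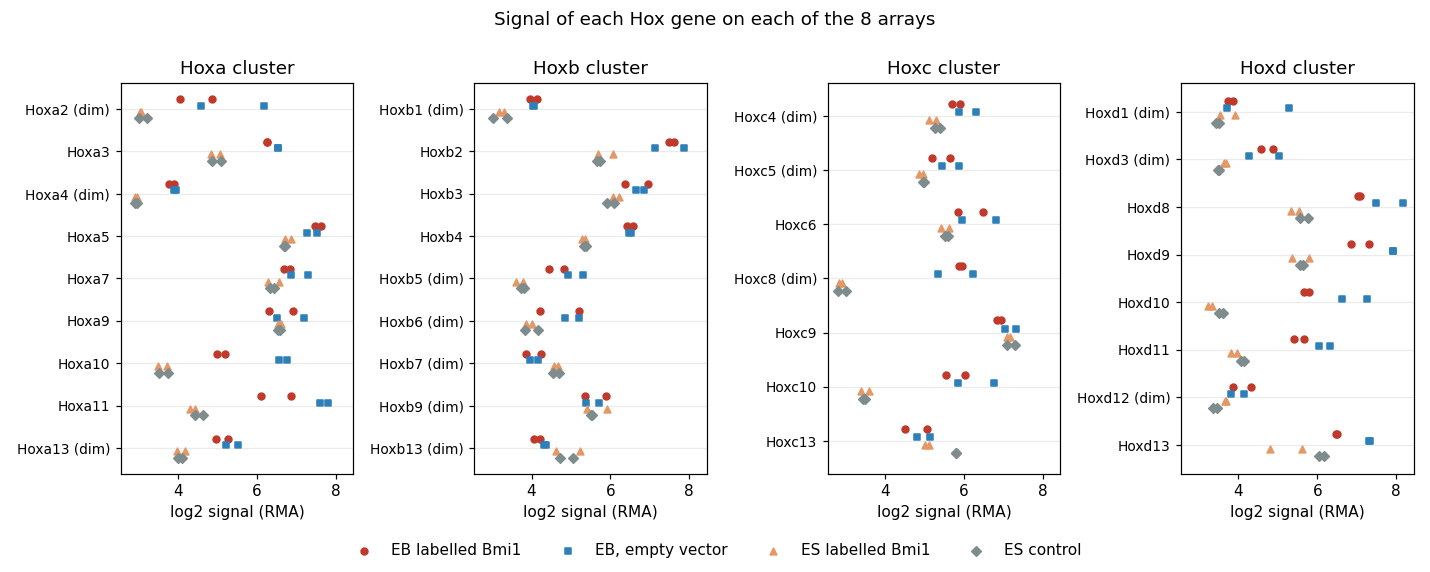
Log2 signal (x axis) of each of the 33 Hox genes (y axis, by cluster and in the order of paralog number) on each of the 8 arrays, with circles for embryoid bodies (EB) labelled Bmi1, squares for vector EB, triangles for ES cells labelled Bmi1 and diamonds for control ES cells. The genes left out of the tests are marked dim, and levels are compared between arrays of a gene and not between genes. Hoxa10, Hoxa11 and Hoxd8 to Hoxd11 show vector EB above EB labelled Bmi1 with no overlap.

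One member was called in this comparison, at an adjusted p under 0.05 in limma's moderated test (0.0077% of the 12982 genes tested were called lower and 0.131% higher): Hoxa10. With the set as a block, 4 were called lower, Hoxa10, Hoxa11, Hoxd10 and Hoxd11 (0.739% of the genes tested), and none higher (1.35%). All 4 are genes of the posterior body. Hoxa10, Hoxd10 and Hoxd11 passed the filter on dim genes only through the 2 vector embryoid body arrays, where they were high. This limits each of their comparisons with the vector embryoid bodies. With the block and no filter, Hoxa10, Hoxa11 and Hoxd10 were called and Hoxd11 was not.

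Hoxa10, which patterns the uterus and the lumbar spine and acts in blood progenitors, read 4.99 and 5.19 in the embryoid bodies labelled Bmi1 and 6.77 and 6.56 in the vector ones. The lower vector array thus lay well above the higher array labelled Bmi1. The difference was -1.57 ± 0.19 (SE from a spread shared by all 8 arrays, n = 2 per group), a 2.98-fold lower signal. The limma adjusted p was 0.047, and 0.012 with the set block, and the differences within the sets were -1.78 and -1.37. Without the block, the call was lost with no filter, with quantile normalization, with median centring and with any 1 array other than vector replicate 2 left out, and the adjusted p ran from 0.010 to 0.73 over all alternatives. Its other probe set was dim, at 3.21 to 4.11 on the embryoid body arrays, and differed by -0.33. With the mean of its probe sets, Hoxa10 did not pass the filter and had no test. The range of adjusted p does not cover that alternative.

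Hoxa11, needed for the kidney, the forearm and the uterus, read 6.87 and 6.12 in the samples labelled Bmi1 and 7.81 and 7.60 in the vector samples. The groups did not overlap. Hoxa11 was lower by 1.21 ± 0.26 on the log2 scale, or 2.32-fold (limma adjusted p = 0.23, and 0.025 with the set block). Within the sets the difference was -0.94 and -1.48.

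Hoxd10, a gene of lumbar motor neurons and the limb, read 5.78 and 5.67 in the samples labelled Bmi1 and 7.25 and 6.63 in the vector samples. Here the samples labelled Bmi1 lay close together and the vector samples apart, all vector values being higher. The difference was -1.21 ± 0.23 (limma adjusted p = 0.18, and 0.023 with the set block), with -1.47 and -0.95 in the sets.

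Hoxd11, which acts with Hoxa11 in forearm and kidney, read 5.41 and 5.67 in the samples labelled Bmi1 and 6.04 and 6.32 in the vector samples. The difference was the same in both sets to the first decimal, at -0.63 and -0.65. It came to -0.64 ± 0.18 (limma adjusted p = 0.40, and 0.045 with the set block). With the block, the call was lost with no filter and with every probe set on its own (limma adjusted p = 0.067 in the latter).

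Of the further Hoxc and Hoxd genes, Hoxd8, Hoxd9, Hoxd13, Hoxc10 and Hoxc13 were among those lower within both sets and passed in neither fit with their representing probe set. The same held for Hoxc6 and Hoxc9, whose values are given below. Hoxd9 read 7.31 and 6.85 against 7.91 and 7.93 in the vector samples, a difference of -0.84 ± 0.22 (adjusted p = 0.34, and 0.074 with the block, limma). Hoxd13, the most distal gene of its cluster and a gene of the digits, read 6.49 and 6.49 against 7.33 and 7.31, a difference of -0.83 ± 0.27 (adjusted p = 0.51, and 0.14 with the block, limma). In both genes the groups did not overlap. Hoxd8 read 7.08 and 7.04 against 8.17 and 7.48, a difference of -0.77 ± 0.25 (adjusted p = 0.51, and 0.085 with the block, limma). Hoxc10, a gene of the lumbar region and hindlimb, read 6.02 and 5.54 against 6.76 and 5.86. Its groups overlapped, and the difference was -0.53 ± 0.31 (adjusted p = 0.83, and 0.11 with the block, limma). Hoxc13, a gene of hair and tail, read 5.08 and 4.51 against 5.15 and 4.81, a difference of -0.18 ± 0.23 with overlapping groups.

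**Figure D2:**
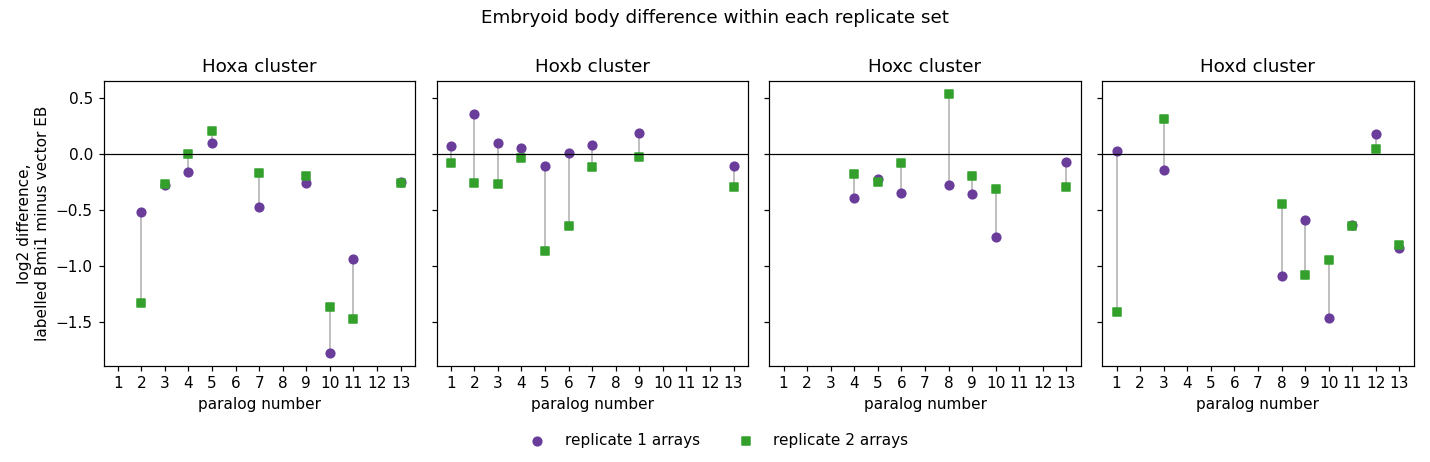
Log2 difference of embryoid bodies labelled Bmi1 minus vector (y axis) by paralog number (x axis) in each cluster, with circles for the replicate 1 arrays and squares for the replicate 2 arrays of the same gene, joined by a line. The 4 genes called with the set block, Hoxa10, Hoxa11, Hoxd10 and Hoxd11, lie between -1.78 and -0.63 in both sets, while the Hoxb genes of paralogs 1 to 4 lie on both sides of 0.

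Of the anterior members, Hoxa2, a gene of the hindbrain and second branchial arch, differed most in the range 1 to 4 on the representing probe sets. It was dim and read 4.06 and 4.85 in the samples labelled Bmi1 and 4.58 and 6.18 in the vector samples, a difference of -0.93 with overlapping groups and no test. Hoxd1, also dim, read 3.73 and 3.87 against 3.70 and 5.28, so that its difference of -0.70 comes from 1 vector array, with 0.02 and -1.42 in the sets. Hoxa3, a gene of thymus and parathyroid development, read 6.25 and 6.26 against 6.53 and 6.53, a small difference of -0.27 ± 0.17 without overlap (adjusted p = 0.86, and 0.31 with the block, limma). The 3 anterior Hoxb genes that were tested had differences near 0. Hoxb2 read 7.49 and 7.60 against 7.14 and 7.86, a difference of 0.05 ± 0.26. Hoxb3 read 6.94 and 6.37 against 6.85 and 6.64, a difference of -0.09 ± 0.23. Hoxb4, used to expand blood stem cells, read 6.57 and 6.42 against 6.52 and 6.46, a difference of 0.00 ± 0.15, and the groups overlapped in all of these. The middle genes Hoxa5, Hoxa7 and Hoxc6 were also not called. Hoxa5 read 7.63 and 7.47 against 7.53 and 7.27, a difference of 0.15 ± 0.17. Hoxa7 read 6.83 and 6.70 against 7.30 and 6.87, a difference of -0.32 ± 0.20. Hoxc6 read 6.48 and 5.86 against 6.83 and 5.94, a difference of -0.21 ± 0.33, with overlap in Hoxa5 and Hoxc6 and none in Hoxa7. The remaining 14 members, of which only Hoxc9 passed the filter, differed by between -0.49 (Hoxb5) and 0.12 (Hoxc8). Hoxc9 read 6.95 and 6.84 against 7.31 and 7.04, without overlap. Its difference was -0.28 ± 0.17 (limma adjusted p = 0.86, and 0.25 with the block), with -0.36 and -0.20 in the sets.

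Probe sets of 1 gene did not always show the same difference. Hoxa9, a gene of blood progenitors and leukaemia, was represented by a probe set that read 6.93 and 6.30 against 7.19 and 6.51, a difference of -0.23 ± 0.29 (limma adjusted p = 0.98, and 0.27 with the block). Its second probe set read 7.60 and 7.31 in the samples labelled Bmi1 and 9.11 and 8.19 in the vector samples. There the difference was -1.20, with -1.52 and -0.88 in the sets (limma adjusted p over all probe sets 0.43, and 0.042 with the set block, where 0.34% of all probe sets tested were called lower). In Hoxa5 the second probe set read 5.40 and 6.57 against 6.96 and 6.89, a difference of -0.94 against 0.15 with the first (adjusted p = 0.72, and 0.14 with the block, limma). Of the other probe sets of Hoxa3, a dim one read 4.21 and 4.28 against 4.74 and 5.81, a difference of -1.04 without overlap and with no test, and -0.54 and -1.53 in the sets. For Hoxd8 both probe sets were lower, by 0.77 and 0.67, and for Hoxb3 neither differed by more than 0.09. For Hoxd13 both were lower, by 0.83 and 0.69.

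**Figure D3:**
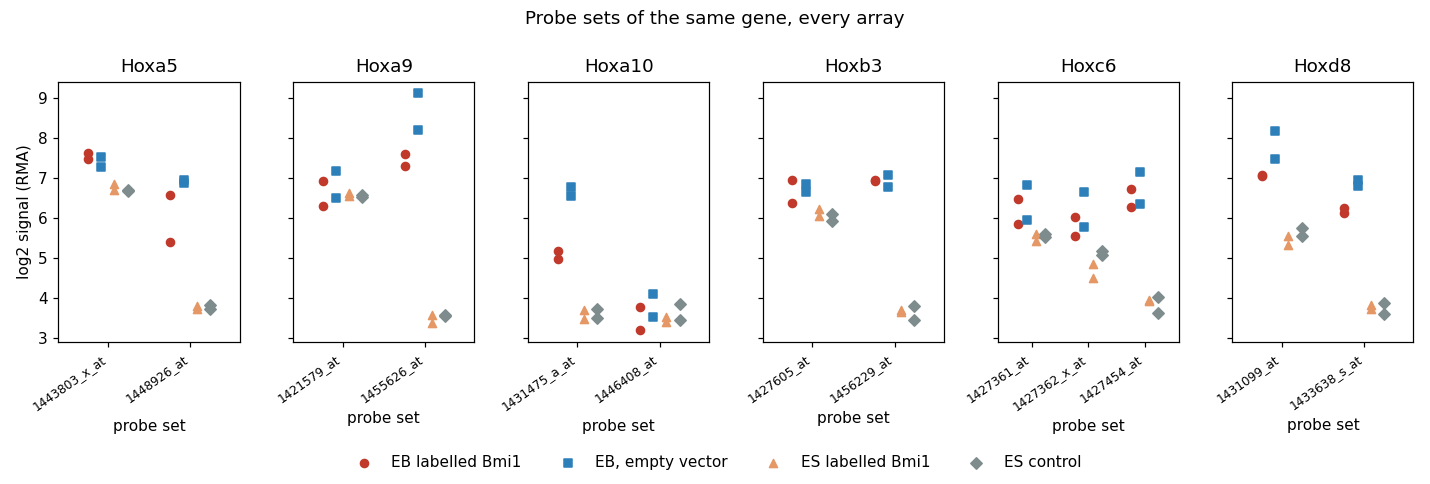
Log2 signal (y axis) of each probe set (x axis) of 6 Hox genes with several probe sets, on each of the 8 arrays, with the same symbols for the groups as in the plot of all genes. For Hoxa9 one probe set lies between 6.3 and 7.2 on all arrays, while the other reads 3.4 to 3.6 in ES cells and 7.3 to 9.1 in embryoid bodies.

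Markers of other cell types also differed between these embryoid bodies. For the counts called below, 0.739% of the genes tested were called lower with the set block and 1.35% higher. For the counts of lower means, the share of all genes was not taken, and the median difference over all genes was -0.02. Of the 7 listed endothelial markers, 7 had the lower mean in the samples labelled Bmi1, 3 were called lower with the set block, and their mean log2 level was 7.19 to 7.51 there and 8.19 to 8.20 in the vector samples. Of 9 blood markers 7 were lower, 2 called with the block, at 7.24 to 7.46 against 7.99 to 8.10. Of 8 neural markers 6 were lower, 2 called with the block, with medians of -0.36 and -1.20 in the sets. Of 5 endoderm markers 3 were lower, 1 called with the block, with medians of -0.26 and -0.89 in the sets, while Afp and Foxa2 differed by 0.47 and 0.42. The medians were 0.03 over the posterior mesoderm list and -0.01 over the list of mesenchyme and limb or kidney mesoderm, with 1 gene of each called lower with the block. These were Pitx1, a hindlimb gene, at -0.89 ± 0.17 (limma adjusted p = 0.19, and 0.034 with the block), and Osr1, a gene of early kidney mesoderm, at -1.15 ± 0.24 (limma adjusted p = 0.20, and 0.028 with the block). The kidney gene Wt1 differed by -1.03 (limma adjusted p = 0.051 with the block). Of the 4 trophoblast markers with a probe set, 2 were called higher with the block and 1, Cdx2, was lower, by 0.63. The mean over the 4 was 7.37 to 7.49 against 6.52 to 6.73. The part of these cell types in the Hox differences was not tested.

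In undifferentiated ES cells, the comparison of the samples labelled Bmi1 with the controls asks whether the same genes differ before differentiation. No Hox gene was called (0% of the genes tested were lower and 0.0462% higher). Before adjustment, 2 members had a limma p under 0.05. The share of all genes tested at that level was not counted, so this number has no background. The median difference over the 33 members was -0.03, against 0.00 over all genes. The groups did not overlap for 7 lower and 4 higher members, with 19.4% and 22.6% of all genes doing so. With the set block, Hoxc13 was called lower (0.27% of the genes tested were) and no member higher (1.39% were). It read 5.13 and 5.01 in the ES cells labelled Bmi1 and 5.80 and 5.79 in the untreated and empty vector controls. Hoxc13 passed the filter on dim genes only through these 2 control arrays, where it was high, which limits its comparisons with them. With the block and no filter it was also called. The difference was -0.72 ± 0.23 (limma adjusted p = 0.51, and 0.042 with the block). The block does not adjust the ES cell arrays and changes this test only through the spread shared with the embryoid body arrays. A fit to the ES cell arrays alone called 139 genes and no member. Hoxd13 read 4.79 and 5.62 against 6.04 and 6.18, a difference of -0.90 ± 0.27 (limma adjusted p = 0.45, and 0.16 with the block). These 2 were the members with an unadjusted p under 0.05, and each control array lay above both arrays labelled Bmi1. Hoxd8, with the largest difference in the range 5 to 8, read 5.32 and 5.54 against 5.55 and 5.76, and in the range 1 to 4 the dim Hoxd1 read 3.92 and 3.52 against 3.51 and 3.43, a difference of 0.25. Hoxa10, the member called in embryoid bodies, read 3.48 and 3.71 against 3.51 and 3.74, a difference of -0.03 ± 0.19. The differences of Hoxa11, Hoxd10 and Hoxd11 were -0.17, -0.28 and -0.22, without overlap of the groups and with limma adjusted p-values of 1 for each (0.80, 0.53 and 0.50 with the block).

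The test of the difference between the stages compares the embryoid body difference with the ES cell difference directly. It called no member without the block (0% of the genes tested were called in either direction). Before adjustment, 4 members had a limma p under 0.05, and the share of all genes tested at that level was not counted. With the block the test called Hoxa10, at -1.55 ± 0.22 (limma adjusted p = 0.044, and 0.23 without the block). In that fit 0.47% of the genes tested were called lower. For Hoxa11 it gave -1.04 (adjusted p = 0.091 with the block, limma) and for Hoxd10 -0.93 (adjusted p = 0.10 with the block, limma). On the ES cell arrays Hoxa10 read 3.48 to 3.74 and Hoxd10 3.22 to 3.61, where the median probe set read about 5.6. Such low signals leave little room for a fall in ES cells. For Hoxd13 it gave 0.07, the signal being lower at both stages.

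Between the stages, most Hox genes had a higher signal in embryoid bodies. In vector embryoid bodies against control ES cells, 29 of the 33 members were higher and 14 were called higher (22.7% of the genes tested were), while Hoxc13 was called lower (35.8% of the genes tested were). With the set block 16 were called higher (29.5% of the genes tested) and Hoxc13 lower (45.3%). The median difference was 1.03, against -0.04 over all genes. Because the median probe set read about 5.9 on the embryoid body arrays and 5.6 on the ES cell arrays, centring each array on its median gave 0.70, against -0.36 over all genes, with 27 members higher. The medians were 1.08, 0.82 and 1.27 for paralogs 1 to 4, 5 to 8 and 9 to 13. The order of these ranges depended on the probe set. With the mean of probe sets the medians were 1.09, 1.34 and 1.47, and with the probe set brightest in embryoid bodies 1.14, 1.03 and 1.70. By cluster, on the representing probe sets, the medians were 1.64 for Hoxd, 1.33 for Hoxa, 0.86 for Hoxb and 0.77 for Hoxc.

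The largest differences among the tested members, on the representing probe sets, were those of posterior genes. Hoxd10 read 3.50 on the untreated and 3.61 on the empty vector ES cell array, and 7.25 and 6.63 in vector embryoid bodies as given above. It rose by 3.39 ± 0.23 on the log2 scale, a 10.5-fold higher signal (limma adjusted p = 7.1e-05). Hoxa11, at 4.63 and 4.43 in the control ES cells, rose by 3.17 ± 0.26 (limma adjusted p = 0.00015), and Hoxa10 by 3.04 ± 0.19 (limma adjusted p = 5.4e-05). Hoxc10, at 3.49 and 3.44 in the controls, rose by 2.84 ± 0.31 (limma adjusted p = 0.00043). In all 4 genes both vector embryoid body arrays lay above both control ES cell arrays. Hoxd9, at 5.63 and 5.56 in the controls, rose by 2.32, Hoxd8 by 2.17, and Hoxd11, at 4.07 and 4.14 in the controls, by 2.07. Hoxd13 rose by 1.21 (limma adjusted p = 0.0069). The dim Hoxc8, a gene of the thorax, read 2.82 and 3.0 in the controls and 6.24 and 5.34 in vector embryoid bodies, a difference of 2.88 with no test.

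Among the tested anterior and middle genes other than Hoxd8, the differences ran from 0.70 to 1.80. Hoxb2 read 5.73 and 5.67 in the control ES cells and rose by 1.80 (limma adjusted p = 0.0013). Hoxa3, at 4.85 and 5.10 there, rose by 1.56 and Hoxb4, at 5.37 and 5.33, by 1.14. Hoxb3, at 5.93 and 6.10, Hoxa5, at 6.68 and 6.70, and Hoxa7, at 6.44 and 6.32, rose by 0.73, 0.71 and 0.70. Hoxc6 read 5.60 and 5.52 in the control ES cells and was higher by 0.82 in vector embryoid bodies (limma adjusted p = 0.063, and 0.00098 with the block). Hoxa9 read 6.54 and 6.59 in the controls and was higher by 0.28 (limma adjusted p = 0.42, and 0.045 with the block). The size of a difference depended on the probe set. Other probe sets of the same genes gave larger values for Hoxa9 (5.08), Hoxb3 (3.28) and Hoxa5 (3.14), and 1.09 and 2.91 for Hoxc6. They gave smaller ones for Hoxa10 (0.17), Hoxd13 (0.30) and Hoxa3, where a pair of dim probe sets gave -0.04 and -0.27 and another 1.75. Hoxc9 differed by -0.02, and Hoxc13 fell by 0.82 (limma adjusted p = 0.018). The dim Hoxb7 and Hoxb13 were both lower, by 0.55.

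**Figure D4:**
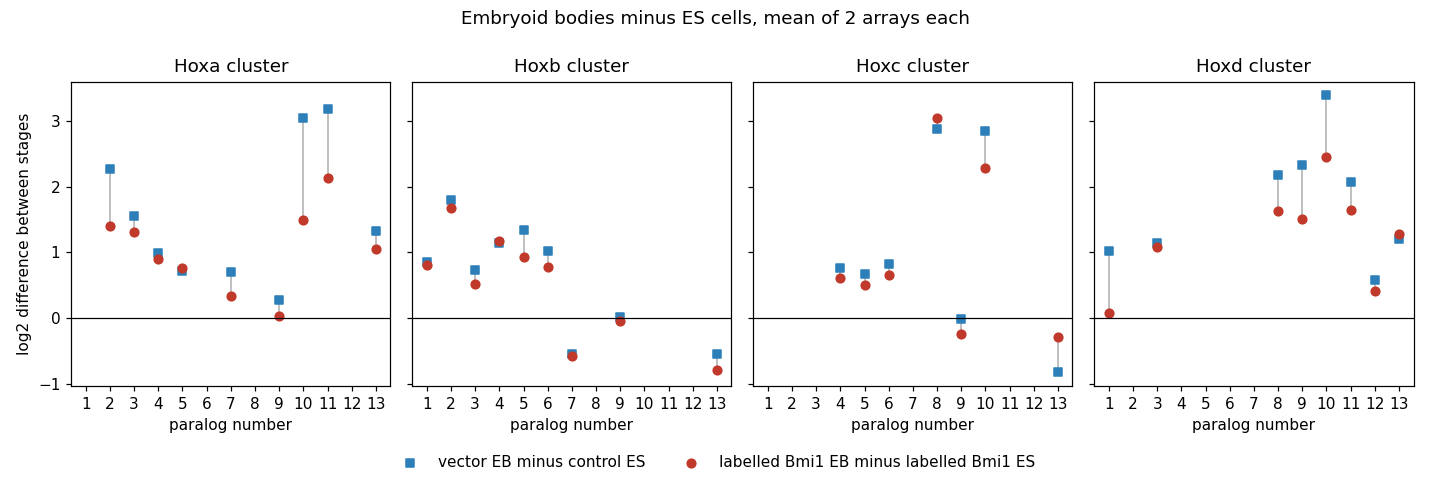
Log2 difference of embryoid bodies minus ES cells (y axis) by paralog number (x axis) in each cluster, with squares for vector embryoid bodies minus control ES cells and circles for embryoid bodies minus ES cells both labelled Bmi1, joined by a line for a gene. The squares of Hoxa10, Hoxa11 and Hoxd10 lie at 3.04 to 3.39 and their circles at 1.49 to 2.45.

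In the samples labelled Bmi1, embryoid bodies against ES cells, 28 of the 33 members were higher, 12 were called higher (21.2% of the genes tested were) and none lower (38% were). With the set block 14 were called higher, with Hoxb3 and Hoxc6 added (27.8% of the genes tested), and none lower (46.6%). The median difference was 0.90, against -0.06 over all genes. The ES cell arrays labelled Bmi1 read 3.22 and 3.33 for Hoxd10, 4.42 and 4.31 for Hoxa11 and 3.60 and 3.39 for Hoxc10. Hoxd10 rose by 2.45 ± 0.23 (limma adjusted p = 0.00026), Hoxc10 by 2.28 ± 0.31 (limma adjusted p = 0.001) and Hoxa11 by 2.13 ± 0.26 (limma adjusted p = 0.00067). Hoxa10 rose by 1.49 ± 0.19 (limma adjusted p = 0.00073), which is 2.82-fold, where the vector samples gave 8.22-fold. Hoxd11, at 3.96 and 3.82 in these ES cells, rose by 1.65, Hoxd8 by 1.63, Hoxd9, at 5.36 and 5.79, by 1.51 and Hoxd13 by 1.28. Hoxb2, at 6.06 and 5.69, rose by 1.67, Hoxa3, at 5.07 and 4.83, by 1.31, Hoxb4, at 5.36 and 5.27, by 1.18 and Hoxa5, at 6.85 and 6.71, by 0.77. Hoxa7, at 6.55 and 6.28, was higher by 0.35 (limma adjusted p = 0.18) and Hoxb3, at 6.06 and 6.22, by 0.52 (limma adjusted p = 0.082, and 0.013 with the block). Hoxc6 read 5.62 and 5.42 in these ES cells and was higher by 0.65 (limma adjusted p = 0.12, and 0.003 with the block). Hoxa9 read 6.55 and 6.62, and Hoxa2 3.03 and 3.06, with 3.02 and 3.21 in the controls. The test of the difference between the 2 stage comparisons is the one given above.

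Genes that act with or upstream of the Hox genes were counted from lists. Of 9 Hox cofactors, the Pbx, Meis and Pknox homeodomain partners, 8 had a probe set, 7 passed the filter and none was called in embryoid bodies labelled Bmi1 against vector in either fit. Between the stages 5 of them were called higher in vector embryoid bodies (22.7% of all genes tested were, and 35.8% lower), Meis2 by 5.54 and Meis1 by 2.89. Of the 8 cluster neighbours and ParaHox genes, which include the Hox activator Cdx2, 4 passed and none was called in embryoid bodies, while between the stages 1 was called higher in vector embryoid bodies and 1 lower. Cdx2 read 6.70 and 6.03 against 7.59 and 6.39, a difference of -0.63 ± 0.40. Of 16 genes of retinoic acid and posterior signals, 14 had a probe set and 12 passed, with 5 called higher and 1 lower in vector embryoid bodies against control ES cells. Of these 12, 1 was called lower in embryoid bodies with the block, Aldh1a2, the enzyme that makes retinoic acid in the trunk mesoderm. Aldh1a2 read 6.61 and 6.79 in the samples labelled Bmi1 and 7.64 and 7.46 in the vector samples, without overlap. The difference was -0.85 ± 0.17 (limma adjusted p = 0.19, and 0.035 with the block), with -1.03 and -0.68 in the sets. The retinoic acid receptor gene Rara differed by -0.50 (limma adjusted p = 0.51, and 0.098 with the block). Of the 10 activators that maintain Hox expression, such as Kmt2a, none was called in embryoid bodies and 7 were called lower in vector embryoid bodies than in control ES cells, set against the same 35.8% of all genes tested. In the ES cells labelled Bmi1, Kdm6b, a histone demethylase gene, was called lower with the block, by 0.91 (limma adjusted p = 0.05 after rounding).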

How the data were processed

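One array per sample was read from the deposited value table, whose log2 values the authors computed by RMA. The submitters' processing notes name RMA without a version and do not name the arrays processed together. RMA corrects background, normalizes arrays run together and summarises probes, so scaling between separately processed sets can enter the comparison of stages. Of 45037 probe sets without controls, 34945 had 1 symbol. The brightest of a gene's probe sets over 8 arrays gave 18193 genes, and the 12982 above the array's median in at least 2 arrays were tested. The number of arrays limits precision.

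One model over 4 groups was fitted with limma 3.58.1 in R 4.3.3 (lmFit, eBayes; 4 residual degrees of freedom, 3 with the set block), two-sided, with Benjamini-Hochberg adjustment over all genes tested and a threshold of 0.05; errors are moderated SEs. The fit was tested on simulated data first. Replicate numbers were checked for pairing: deviations from group means correlated at 0.721 between the embryoid body replicate 1 arrays and, for each of them with ES cell replicate 1 labelled Bmi1, at 0.0273 and 0.0378, so only the embryoid body arrays were blocked, as 2 sets. Values on every array are given for members called in any contrast in either fit and for the largest difference of each paralog range; related genes by smallest p. The members and lists were chosen with earlier results of these data known. Promoter sequences come from RefSeq (GRCm38.p6). Alternatives covered the filter, probe set, normalization, block, stage, control array and each array left out; some were added after seeing the data.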

Additional observations from a re-analysis of the deposited data

Results flagged for a closer look

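The difference labelled Bmi1 minus control of Hoxa10 was not the same at the 2 stages by the test of the difference itself with the set block: it was -1.57 in embryoid bodies and -0.03 in ES cells, a difference of -1.55 ± 0.22 (limma adjusted p = 0.044). Without the block the adjusted p was 0.23, and the call was present in 4 of 19 alternatives, not in that with the block and quantile normalization. On the ES cell arrays Hoxa10 read only 3.48 to 3.74, where the median probe set read about 5.6. A low signal leaves little room for a fall there, and this limit was not tested.

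Probe sets of antisense transcripts in the clusters lie outside the members. In ES cells, both arrays labelled Bmi1 lay above both control arrays for the dimmer Hoxd3os1 probe set, by 0.17, and for the Hoxb5os probe set, by 0.33. The brighter Hoxd3os1 probe set differed by -0.21 there, and 22.6% of all genes were higher without overlap in this comparison. These differences were not tested.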

How the results depend on the processing

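Counts of members called are given by setting. Embryoid bodies labelled Bmi1 against vector gave 1, and 0 with no filter, with the mean of probe sets, every probe set on its own, quantile normalization, median centring or arrays of the stage only. With the replicate block they gave 4, and 5 with the block and either the probe set brightest in embryoid bodies or quantile normalization. They gave 4 with the block and every probe set or median centring, and 3 with the block and no filter. Hoxd11 was not among those called with the block and every probe set, where Hoxa9 was, or with the block and no filter. Leaving out 1 array gave 0 to 2, and 2 without vector replicate 2 (Hoxa10 and Hoxd10). For ES cells and for the difference between the stages the count was 0, and 1 with the block alone, with the block and the probe set brightest in embryoid bodies, with the block and no filter, or with the block and median centring; leaving out 1 array gave 0 to 0. Vector embryoid bodies against control ES cells gave 15, 25 with no filter and 29 with the block and no filter, where dim genes were also tested, and 11 to 15 with 1 array left out. The samples labelled Bmi1 gave 12, 22 and 27 in these settings, and 11 to 13. Hoxa10 kept its direction, at -1.68 to -1.47 in embryoid bodies, a range without the mean of its probe sets, which did not pass the filter. Hoxa11 was at -1.59 to -0.84, Hoxd10 at -1.52 to -0.90, Hoxd11 at -0.78 to -0.50 and, in ES cells, Hoxc13 at -0.78 to -0.67. The set block added the calls of Hoxa11, Hoxd10, Hoxd11 and Hoxc13, of Hoxa10 in the difference between the stages, of Hoxa9 and Hoxc6 in vector embryoid bodies against control ES cells, and of Hoxb3 and Hoxc6 in the samples labelled Bmi1 between the stages. Where no value shows it, the cause was not tested.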

Other observations

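The antisense and shared probe sets of the clusters gave further values. Hoxa11os, the antisense transcript beside Hoxa11, read 5.62 and 5.21 in embryoid bodies labelled Bmi1 and 6.39 and 6.02 in vector embryoid bodies on its brighter probe set, and 3.17 to 3.32 in ES cells. The embryoid body groups did not overlap, and the difference was -0.79, with -0.77 and -0.80 in the sets (limma adjusted p over all probe sets 0.46, and 0.042 with the set block). Its other probe set was near 2.9 on these arrays and differed by -0.01. The brighter probe set of Hoxd3os1 read 5.85 and 5.42 against 6.68 and 6.74, a difference of -1.07 (limma adjusted p = 0.29, and 0.056 with the block). Hoxb5os read 6.71 and 6.39 against 7.04 and 6.94, a difference of -0.44 (limma adjusted p = 0.85, and 0.17 with the block). A probe set shared by Hoxb8 and Hoxb7 differed by -0.15, and those shared by Hoxd4 and Hoxd3 by -0.53 and -0.25.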
